A study of Caenorhabditis elegans with 2 samples.

Results

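The Hox genes of Caenorhabditis elegans were examined for peaks in a chromatin immunoprecipitation (ChIP-seq) of the homeodomain protein DUXL-1. The members are the 6 genes ceh-13, lin-39, mab-5, egl-5, php-3 and nob-1, taken by symbol from 19973 nuclear protein-coding genes. All 6 symbols matched 1 gene each in the annotation. The libraries are 2 biological replicates of whole hermaphrodite L4 larvae of strain OP470. The strain carries the mutation unc-119(tm4063) on chromosome III and the transgene wgIs470, which adds a GFP and FLAG tag to the C-terminal end of DUXL-1, and the chromatin was precipitated through GFP. The sequence that drives the transgene is not stated in the labels. With a single group there is nothing to compare between conditions, and all values describe these libraries. No control precipitation was analysed, and whether signal at a Hox gene depends on DUXL-1 was not tested. Whole larvae mix many tissues, and the cells a peak comes from cannot be told apart.

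Hox genes encode homeodomain transcription factors that give cells their identity along the head-to-tail axis. In the worm they lie in pairs on chromosome III. ceh-13 is the anterior, labial-type gene, lin-39 acts in the mid-body, including the vulval precursor cells, and mab-5 acts in the posterior body, including migrating neuroblasts. egl-5, php-3 and nob-1 are posterior genes of the Abdominal-B type. Annotated starts of worm transcripts are often sites of trans-splicing and not of transcription initiation, so distances from a start refer to the annotation.

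Each gene was given a window from 5000 bp upstream of its outermost annotated start to its end, and a region counted when its summit, the point of highest signal, lay in the window. In ce11 coordinates, lin-39 lies at chrIII:7528641-7536632 on the minus strand and ceh-13 at chrIII:7555660-7558041 on the plus strand, with 19.0 kb between them and no protein-coding gene in that gap. mab-5 lies at chrIII:7776835-7783454 on the minus strand and egl-5 at chrIII:7814374-7817141 on the plus strand, with 30.9 kb and the gene cyk-7 between them. php-3 (chrIII:12074218-12077556) and nob-1 (chrIII:12077793-12084316) follow each other on the minus strand with a gap of 236 bp, so the window of php-3 reaches into nob-1.

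The thresholded list, which the authors filtered on reproducibility, equals the 1980 strongest of 30000 pooled candidates, so membership follows the pooled signal. Its peaks lay at lin-39, mab-5 and egl-5, and none lay at ceh-13, php-3 or nob-1. Thus 3 of 6 Hox genes had a thresholded summit in the window, against 15.4% of all 19973 genes by the same rule, and against 18% of the 6854 genes whose windows are as long as those of the Hox genes. The 3 peaks are shown first by their sequence, because the 101 bases around their summits, 50 on each side, share a word. The sequences are from the RefSeq genome WBcel235, written along the strand of the gene. The first lies in lin-39 at chrIII:7534917-7535017 (minus strand), the second upstream of mab-5 at chrIII:7784421-7784521 (minus strand) and the third upstream of egl-5 at chrIII:7812344-7812444 (plus strand). Capitals mark GACTCCNCCC, the longest word with at most 1 free position that all 3 share.
lin-39: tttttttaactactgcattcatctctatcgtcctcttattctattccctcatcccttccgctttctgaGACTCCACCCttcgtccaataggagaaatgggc
mab-5: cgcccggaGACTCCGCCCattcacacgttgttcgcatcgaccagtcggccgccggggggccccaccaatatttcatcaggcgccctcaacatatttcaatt
egl-5: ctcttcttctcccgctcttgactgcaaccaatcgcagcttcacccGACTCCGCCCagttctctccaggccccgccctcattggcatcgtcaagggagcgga

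The word stood on the coding strand of all 3 genes, as GACTCCACCC at lin-39 and as GACTCCGCCC at mab-5 and egl-5. Its centre lay 0.5 bp from the summit at egl-5, 22.5 bp from it at lin-39 and 37.5 bp from it at mab-5. The windows of the 6 Hox genes held 3 sites of the word in 54.9 kb. These 3 are the sites from which the word was taken, so their place inside the thresholded peaks was fixed in advance. The nuclear genome held 807 sites on either strand, of which 121 overlapped a pooled candidate region and 19 a thresholded one. Both counts include the 3 Hox sites, and the share of the genome that these regions cover is not given here. Within 50 bp of the summit the word was present in 3 of 3 thresholded Hox peaks, in 10 of 1965 nuclear thresholded peaks (0.509%, the 3 Hox peaks included) and in 0.16% of 29984 nuclear pooled candidates. Since the word was found in these same sequences, its presence in all 3 is a description and no test was made.

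The words searched because homeodomain proteins are known for them were absent within 50 bp of the thresholded Hox summits. TAAT, the core word of many homeodomain proteins, was found within 50 bp of 0 of 3 thresholded Hox summits, against 41% of nuclear thresholded summits and 52.7% of nuclear pooled candidates. TAATTA, which contains TAAT, and TGATNNAT, a word of Hox proteins with their PBC-class cofactors, were also found at 0 of 3. Their shares over nuclear thresholded summits were 1.58% and 4.53%, so 0 of 3 is close to that background. With only 3 summits, whether the lack of TAAT differs from its share was not tested. The absence depends on the distance, since within 100 bp TAAT and TAATTA were each found at 1 of 3 thresholded Hox summits, against 67.9% and 5.39% of nuclear thresholded summits, and TGATNNAT at 0 of 3, against 10.3%. GAGAGA was found at 1 of 3, the egl-5 peak, against 21.1% of nuclear thresholded summits. CCAAT, searched after the sequences were seen, was found at 3 of 3, against 17.3% of nuclear thresholded summits and 21.2% of nuclear pooled candidates. The shared 6-base word CCCTCA was taken from these same 3 sequences, so its presence at 3 of 3 was fixed in advance. Its share over nuclear thresholded summits was 2.75%. All words were searched on both strands. GC content was 43.6% at lin-39, 59.4% at mab-5 and 61.4% at egl-5, and the median was 47.5% over nuclear thresholded summits.

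The peak of egl-5 was the strongest of the Hox windows. Its summit at 7812394 lay 1980 bp upstream of the nearest annotated egl-5 start, in sequence between genes. Its signal, the value the authors' lists give each region, was 110 in the pooled and thresholded lists, 48.0 in replicate 1 and 56.2 in replicate 2. It ranked 734 of 30000 pooled candidates, 1140 in replicate 1 and 722 in replicate 2, and the summits of the replicates were 40 bp apart. Over 1886 nuclear thresholded peaks with a counterpart in both replicates, pooled signals were close to the sum of the replicates' signals (median ratio 1.04). A signal is therefore read here within its own list. A further candidate of egl-5 lay 125 bp upstream of a start (summit 7814249), with a signal of 47.9 in the pooled list, 13.99 in replicate 1 and 28.8 in replicate 2. This start-proximal candidate stayed below the thresholded list, whose lowest signal was 65.0. The third candidate lay in the coding sequence, 1617 bp downstream of the nearest start, with a pooled signal of 19.6, and it had a counterpart in replicate 2 (13.9) and none in replicate 1.

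The peak of lin-39 lay inside the gene, in intron 1 of the longer transcript and directly before the start of the shorter one. lin-39 has 2 annotated transcripts with starts 1827 bp apart. The summit at 7534967 lay 1665 bp downstream of the outer start and 162 bp upstream of the inner start. Its signal was 102 in the pooled list, 43.6 in replicate 1 and 52.4 in replicate 2, at ranks 850, 1402 and 815. The replicates' summits were 60 bp apart. The peak of egl-5 ranked ahead of it in the pooled list and in each replicate, and with 2 libraries this difference was not tested. The other 3 pooled candidates of lin-39 lay in introns 2, 3 and 5, with pooled signals of 16.8, 34.5 and 20.1. The one in intron 3 had counterparts in both replicates (17.0 in replicate 1 and 12.4 in replicate 2) and those in introns 2 and 5 had one in replicate 1 alone (14.2 and 8.58). No candidate lay in the 5000 bp upstream of the outer start in the pooled list.

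The peak of mab-5 was weaker and close to the limit of the thresholded list. Its summit at 7784471 lay 1017 bp upstream of the only annotated start, between genes. Its signal was 67.2 in the pooled list, 21.99 in replicate 1 and 29.9 in replicate 2, with replicate summits 81 bp apart. It ranked 1846 of the 1980 thresholded peaks, and only 18 of 1886 nuclear thresholded peaks with a counterpart in both replicates were weaker in both. Its rank was 6212 in replicate 1 and 2570 in replicate 2, below the 1980 strongest candidates of either library. The other 3 candidates of mab-5 all lay in intron 3, between 2437 and 4148 bp from the start, with pooled signals of 34.0, 26.6 and 19.8. The first 2 of these had counterparts in both replicates, at 15.0 and 10.8 in replicate 1 and at 8.12 and 11.4 in replicate 2. The weakest had a counterpart in neither.

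ceh-13 had the strongest candidate that missed the thresholded list, and it was seen in 1 library. Its summit at 7554656 lay 1004 bp upstream of the start, with a signal of 54.4 and rank 2835 in the pooled list. In replicate 1 the signal was 39.2 (rank 1756, among the 1980 strongest), and no candidate of replicate 2 overlapped it. The other 2 candidates of ceh-13 lay in coding sequence, 184 and 1704 bp downstream of the start, with pooled signals of 18.2 and 22.4. Both had a counterpart in replicate 2 (17.3 and 9.24) and none in replicate 1. None of the 3 was therefore seen in both libraries.

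At the tandem pair php-3 and nob-1 all candidates stayed below the limit of the thresholded list. The window of nob-1 held 8 pooled candidates, the most of any Hox gene, with signals between 17.1 and 46.3, and that of php-3 held 5, of which 2 are shared with nob-1. The strongest, at summit 12082263, lay in intron 2 of nob-1, 1999 bp downstream of the nearest nob-1 start and 4707 bp upstream of php-3. Its signal was 46.3 in the pooled list, 15.3 in replicate 1 and 30.3 in replicate 2, with replicate summits 188 bp apart. Over 1886 thresholded peaks the median gap was 33 bp and the upper quartile 71 bp. The thresholded peaks of egl-5 (40 bp), lin-39 (60 bp) and mab-5 (81 bp) were also wider than that median. The other shared candidate (33.2 in the pooled list, 17.2 in replicate 2, no counterpart in replicate 1) also lay in intron 2 of nob-1, 1310 bp upstream of the start of its shortest transcript. Near the outer starts of nob-1, candidates lay 106 and 828 bp upstream, with pooled signals of 32.04 and 30.5. The nearer had a signal of 24.9 in replicate 2 and no counterpart in replicate 1, and the farther had 11.9 in replicate 1 and 15.6 in replicate 2. Thus 1 of these 2 start-proximal candidates was seen in both libraries. Candidates farther upstream, at 1760 and 3371 bp, had pooled signals of 17.1 and 30.9 and counterparts in replicate 1 alone (12.7 and 15.7). Within nob-1, 2 more candidates in intron 2 had pooled signals of 36.3 (19.3 in replicate 1 and 9.77 in replicate 2) and 21.4 (replicate 2 alone, 13.8). Of the 3 candidates of php-3 that are not shared, 1 lay 227 bp upstream of its start, 1 in coding sequence 208 bp downstream and 1 in intron 3, with pooled signals of 16.3, 22.4 and 19.0. All 3 had a counterpart in replicate 1 alone (9.16, 17.3 and 15.0). These 3 candidates of php-3 were therefore among the weaker ones, and none of these 3 was seen in both libraries.

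**Figure D1:**
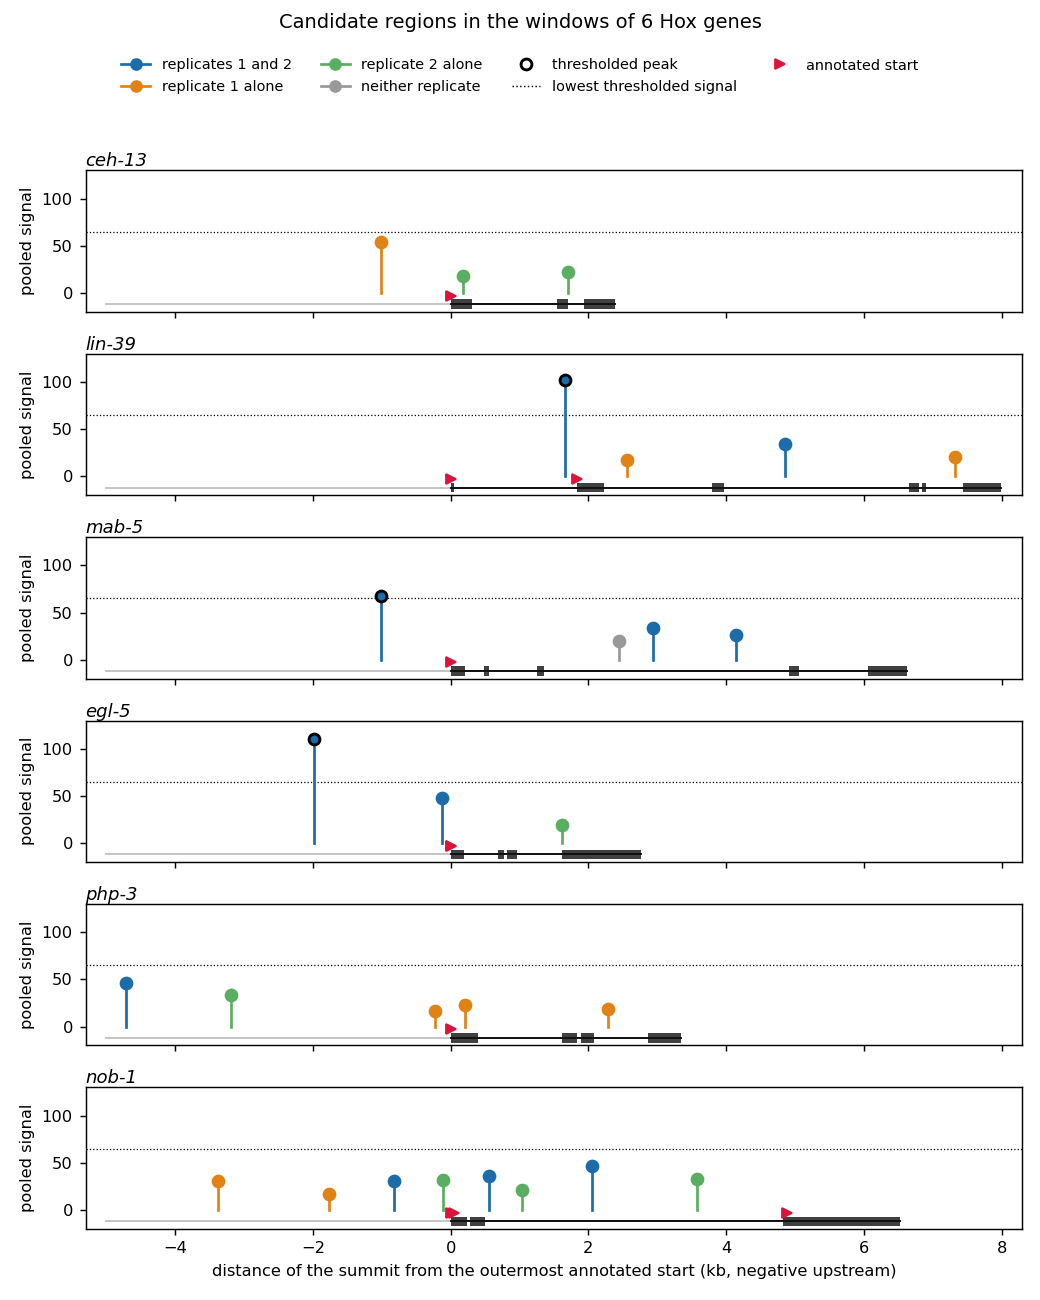
Pooled candidate regions in the window of each of 6 Hox genes, by distance of the summit from the outermost annotated start (x axis, kb) and pooled signal (y axis). Stems are coloured by the replicates that hold an overlapping candidate, black rings mark thresholded peaks, grey boxes are exons and red arrowheads annotated starts. The 3 ringed peaks, at lin-39 (102), mab-5 (67.2) and egl-5 (110), stand above the dotted line at 65.0, and the candidates of ceh-13, php-3 and nob-1 stay below it.

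For comparison with the thresholded peaks, the strongest other candidates of egl-5, ceh-13 and the php-3 and nob-1 pair are printed in the same way. They lie at chrIII:7814199-7814299 (egl-5, plus strand), chrIII:7554606-7554706 (ceh-13, plus strand) and chrIII:12082213-12082313 (nob-1 intron 2, minus strand). Capitals here mark TAAT, since none of these 3 sequences holds GACTCCNCCC.
egl-5, before the start: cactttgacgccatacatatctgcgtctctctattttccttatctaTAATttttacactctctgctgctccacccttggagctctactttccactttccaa
ceh-13: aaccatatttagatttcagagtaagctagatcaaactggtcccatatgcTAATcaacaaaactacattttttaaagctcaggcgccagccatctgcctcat
nob-1, intron 2: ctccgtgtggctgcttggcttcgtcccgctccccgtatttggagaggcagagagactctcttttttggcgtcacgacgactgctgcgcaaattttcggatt
TAAT begins 4 bp from the summit in the egl-5 sequence and 1 bp from it in the ceh-13 sequence, and is absent from the nob-1 sequence. Over all 25 pooled candidates of the Hox windows, TAAT was found in 48%, against 52.7% of all nuclear candidates, which is close to that background. TAATTA and TGATNNAT were found within 50 bp of 0 of these 25 summits, against 3.07% and 7.4% of all nuclear candidates. Within 100 bp each was found at 12% of the Hox candidates, against 6.63% of all nuclear candidates for TAATTA and 14.9% for TGATNNAT. GAGAGA was found in 20%, against 9.73%.

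In total the 6 windows held 25 different pooled candidates, with 3 to 8 per gene. All 6 genes had at least 1, against 70.2% of all protein-coding genes, and no background was computed for higher counts. The Hox windows (7.38 to 13.0 kb) are also longer than the median window of all genes, 7.03 kb. A candidate is weak evidence, since most genes had one and the candidate lists hold background regions by design. The signals ranged from 16.3 to 110 with a median of 30.5, against a median of 25.6 over all nuclear candidates. Counterparts were present for 18 of the 25 in replicate 1, for 16 in replicate 2, for 10 in both and for 1 in neither. The share found in both was 40%, against 35.9% of 29984 nuclear candidates, which is close to that background. Only the peaks of lin-39 and egl-5 were among the 1980 strongest candidates of both replicates.

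**Figure D2:**
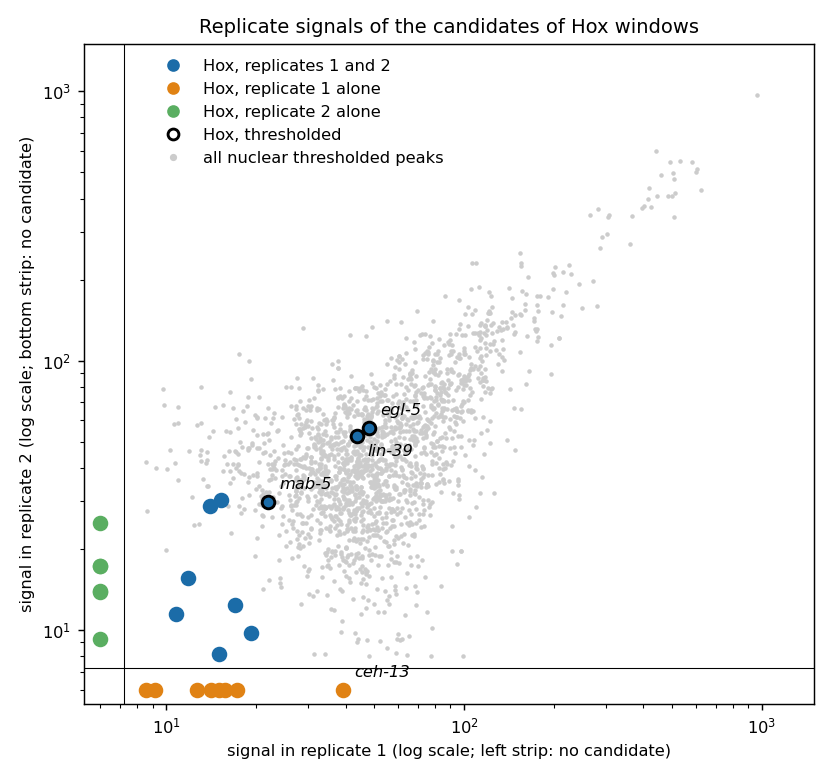
Signal of the candidates of the Hox windows in replicate 1 (x axis) and replicate 2 (y axis), both on log scales, with candidates that lack a counterpart drawn in the strip of the missing replicate and grey dots for 1886 nuclear thresholded peaks. The candidate of mab-5 found in neither replicate is not drawn. The peaks of egl-5 and lin-39 lie within the grey cloud, mab-5 lies near its lower edge, with 18 peaks weaker in both replicates, and the ceh-13 candidate has a signal in replicate 1 alone (39.2).

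Each replicate also listed candidates in these windows that no pooled candidate overlapped, 8 in each. Those of replicate 1 had signals between 9.43 and 16.0, with the strongest 1331 bp upstream of nob-1. Those of replicate 2 had signals between 8.22 and 21.3. The strongest of replicate 2 lay in intron 3 of mab-5, 4737 bp from the start, at rank 5668, and had no counterpart in replicate 1. Upstream of mab-5, a candidate of replicate 1 (signal 9.55, 4158 bp from the start) and a candidate of replicate 2 (12.5, 3884 bp) overlapped each other without a pooled counterpart.

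Ordered by their strongest pooled signal, the genes ran from egl-5 (110) through lin-39 (102), mab-5 (67.2) and ceh-13 (54.4) to php-3 and nob-1, which share a candidate at 46.3. Among all 19973 genes, 6.81% had a stronger candidate in the window than egl-5 and 7.7% than lin-39, against 14.5% for mab-5, 20% for ceh-13 and 26% for php-3 and nob-1. These shares were not matched for window length, and the Hox windows are longer than the median window of all genes. The order below lin-39 differed between the replicates. In replicate 1 ceh-13 (39.2) came next after egl-5 and lin-39, followed by mab-5 (21.99), nob-1 (19.3) and php-3 (17.3). In replicate 2 the shared candidate of php-3 and nob-1 (30.3) and mab-5 (29.9) came next, and ceh-13 came last (17.3). Between mab-5, ceh-13 and the pair of php-3 and nob-1, no order held in both replicates.

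**Figure D3:**
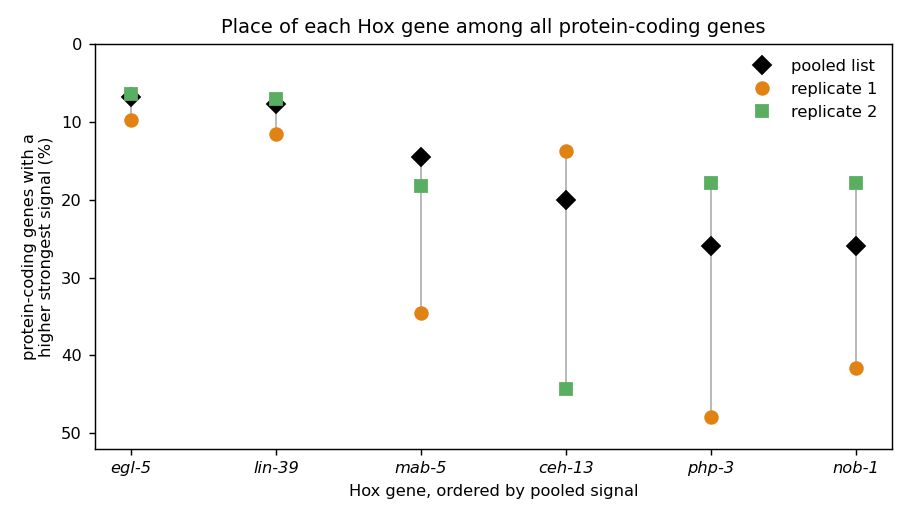
Percent of 19973 protein-coding genes whose strongest candidate is stronger than that of the Hox gene (y axis, 0 at the top), for the 6 Hox genes (x axis) in the pooled list and in each replicate. Genes were not matched for window length. The 3 symbols of egl-5 (6.4 to 9.79%) and lin-39 (7.13 to 11.5%) lie close together. Those of the other genes spread more widely between replicates 1 and 2, at 34.6% and 18.3% for mab-5, 13.7% and 44.3% for ceh-13, 47.9% and 17.8% for php-3, and 41.6% and 17.8% for nob-1.

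By place, the summits of Hox windows were most often in introns. Counting a shared candidate once for each gene, 11 of 27 summits lay in introns (40.7%), 7 upstream beyond 1000 bp (25.9%), 6 at promoters (22.2%) and 3 in exons (11.1%). A promoter here runs from 1000 bp upstream to 200 bp downstream of any annotated start of the gene. The split depends on these limits. The strongest summits of ceh-13 (1004 bp upstream) and mab-5 (1017 bp upstream) lay just outside them. So did the exon summit of php-3 (208 bp downstream). The 2 shared candidates count as upstream for php-3 and as intron for nob-1. Over the windows of all protein-coding genes, 13.6% of summits lay in introns, 47% upstream, 20.7% at promoters and 18.8% in exons. Introns also make up more of the Hox windows, 32% of their length against 18.3% over all genes. Per length, introns of Hox genes held 0.576 candidates per kb, against 0.243 in introns of all genes, and the upstream parts held 0.292 against 0.317. Promoters held 0.621 against 0.383 and exons 0.438 against 0.401. Taken over merged windows, the density was 0.456 candidates per kb at Hox genes, against 0.31 over all protein-coding genes and 0.299 in the nuclear genome. These differences rest on 25 regions and were not tested. None of the 25 summits lay within 100 bp of an annotated non-coding RNA gene.

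**Figure D4:**
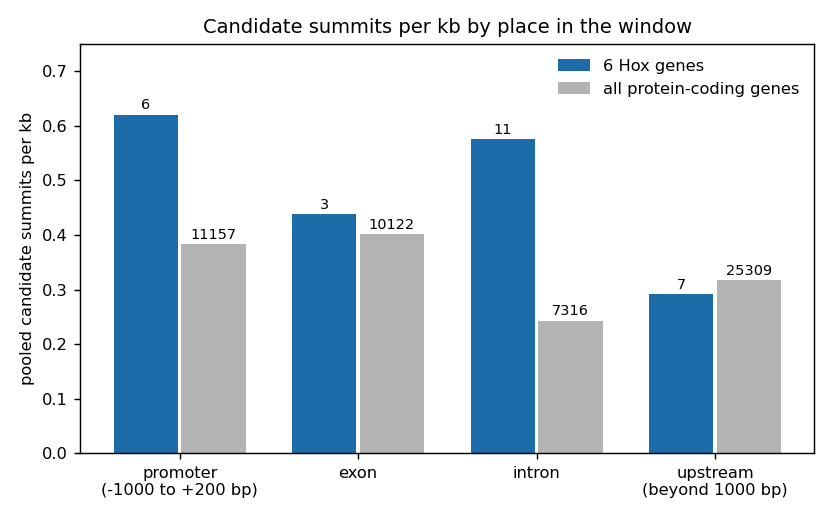
Pooled candidate summits per kb of window (y axis) by place (x axis) for the 6 Hox genes and for all protein-coding genes, with the number of gene and candidate pairs above each bar. The bars differ most in introns, at 0.576 per kb for Hox genes and 0.243 for all genes.

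Genes known to work with, regulate or follow Hox genes were looked up by the same window rule, from lists chosen with results of these data known. Of 33 such genes, 6 had a thresholded summit, which is close to the 15.4% of all genes. Of 8 chromatin repressors that keep Hox genes silent outside their domains, 4 had one, with summits 261 to 592 bp upstream of their starts. The strongest was at sor-1 (298 in the pooled list, 145 in replicate 1 and 151 in replicate 2). Those of sor-3 (171, with 84.1 and 70.6 in replicates 1 and 2), sop-2, which encodes a SAM-domain protein (144, with 66.3 and 81.7), and spat-3, which encodes a RING-finger protein (75.4, with 43.2 and 40.8), were weaker. The sor-3 summit lay within 100 bp of a tRNA gene and an ncRNA gene and the spat-3 summit within 100 bp of ncRNA genes. The genes mes-2, mes-3 and mes-6, whose products form a histone methyltransferase complex, and mig-32 had none. The strongest of these was the candidate of mes-2, 121 bp upstream of its start, at 60.2 in the pooled list, 30.7 in replicate 1 and 17.4 in replicate 2.

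Of 7 described targets, egl-18, which encodes a GATA factor that LIN-39 activates in vulval cells, had a thresholded summit 2116 bp downstream of its nearest start, with a signal of 302 in the pooled list, 155 in replicate 1 and 148 in replicate 2. Of 5 other regulators, egl-27 had one, 424 bp downstream of a start, at 65.7 in the pooled list, close to the limit of 65.0, with 56.6 in replicate 1 and 18.3 in replicate 2. None of 4 Hox cofactor genes (ceh-20, ceh-40, ceh-60 and unc-62) and none of 9 Wnt pathway genes had a thresholded summit. The strongest candidate among the cofactors was at unc-62 (45.0 in the pooled list, with 11.0 and 25.8 in replicates 1 and 2). These lists are small, and no difference from the background was tested.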

How the data were processed

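Chromatin from 2 biological replicates was analysed as deposited peak lists in build ce11. Per the deposited README files, the authors made candidate lists, which include background regions, from each replicate's alignments and from both together, each with a further file that also served for a control-normalized signal. By the authors' name for it, the thresholded list was filtered on the irreproducible discovery rate (IDR). No aligner, peak caller or IDR threshold is given in the sources used here. The deposited lists give a signal per region, which is not scaled between lists, a −log10 q value and the distance of the summit from the region's start. The thresholded list equals the 1980 strongest of 30000 pooled candidates. Lists in ce10 were not used. The lists hold no counts, so depth is unknown.

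Coordinates are 1-based. Genes came from Ensembl release 115 and sequence from RefSeq, both WBcel235, the build of ce11; 0 regions ran past a chromosome end. Summits were assigned to gene windows and places, and a candidate counted as found in a replicate at an overlap of at least 1 bp, taking the strongest overlapping region. The window functions were tested on simulated data. No statistical test was made. The members, gene lists and words were chosen with earlier results of these data known. Named were all Hox genes, related genes with a thresholded summit, and examples chosen after their values were seen. The shared words, CCAAT, the window-length background and the shares of words within 100 bp over all nuclear summits were also chosen after seeing the data. Alternatives changed the window, list, overlap, starts, promoter and word distance. Python 3.11.15, numpy 2.4.6 and matplotlib 3.10.9 were used.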

Additional observations from a re-analysis of the deposited data

How the results depend on the processing

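The count of 3 Hox genes with a thresholded summit was the same with 2000 or 10000 bp upstream and with any overlap. In each case the genes were lin-39, mab-5 and egl-5. The share of all genes was 10.6% with 2000 bp, 15.4% with 5000 bp and 22.2% with 10000 bp, so the background rose while the count did not. In the stronger part of the thresholded list (its upper 990 peaks) mab-5 was lost, leaving 2 genes, while the share of all genes fell to 8.86%. With each replicate's own 1980 strongest candidates, replicate 2 alone gave 2 genes (lin-39 and egl-5), against 14.8% of all genes. Replicate 1 alone gave 3 (ceh-13, lin-39 and egl-5), against 15%. Thus mab-5 was called in neither replicate alone and ceh-13 in replicate 1 alone. With 10000 bp upstream there were 4 thresholded summits. Among the 10000 strongest pooled candidates, 11 lay in Hox windows. With 2000 bp upstream the strongest candidate of php-3 was 22.4, since its shared candidate lies farther out. Within 100 bp of the summit, TAAT was found in 76%, TAATTA in 12% and TGATNNAT in 12% of Hox candidates, against 77.8%, 6.63% and 14.9% of all nuclear candidates at that distance. Of 57 alternatives, 51 stayed within 1.5 times of the value reported. A fall from 3 to 2 genes counts as within that limit, and so does the exchange of mab-5 for ceh-13 in replicate 1. Signal cannot be compared between lists, and with 2 libraries and unknown depth a candidate seen in 1 replicate may be below detection in the other.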

Other observations

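A further thresholded peak lay outside the Hox windows, in the stretch between mab-5 and egl-5. Its summit, at chromosome III 7792431, lay 8.98 kb upstream of mab-5 and in no annotated gene, with a signal of 74.7 in the pooled list, 37.1 in replicate 1 and 28.7 in replicate 2. The nearest protein-coding start was that of cyk-7, 2865 bp away. The whole stretch from mab-5 to egl-5 (40.3 kb) held 3 thresholded peaks and 14 pooled candidates, and that from lin-39 to ceh-13 (29.4 kb) held 1 and 7. Around php-3 and nob-1 the nearest thresholded peak was 131 kb from the php-3 start, inside Y56A3A.7 (signal 248).

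Of the 10 thresholded peaks with GACTCCNCCC within 50 bp of the summit, 7 lay away from Hox genes. The nearest starts were those of his-37, a histone gene (signal 334), atx-2, the worm ataxin-2 gene (211), hyls-1 (116), ZC21.10 (95.8), K05C4.7 (94.5), ncx-7 (92.9) and T24E12.3 (65.1). In 6 of these 7 the summit lay upstream of the start, by 45 to 949 bp, and at ncx-7 it lay 2981 bp downstream. No share of upstream summits over all thresholded peaks is given here for comparison. Whether the word bears on these peaks was not tested.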
